A study of Mus musculus with 10 samples.

Results

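Chemokines and vascular adhesion molecules are the signals that bring leukocytes out of the blood into the heart wall. The set described here held 10 genes, chosen by name: the chemokines Ccl2, Ccl7, Ccl8, Ccl11, Cxcl1, Cxcl12 and Cx3cl1, and the adhesion molecules Icam1, Vcam1 and Selp. Every probe whose accession matched one of these symbols was taken. This gave 12 probes of 39429 on the array, since Cxcl12 and Vcam1 had 2 probes each, for 10 of 20144 named genes. All 12 probes were well above background in the heart channel on 9 of 9 arrays, so none was lost to the filter on dim probes. Of all probes, 26877 passed that filter and were tested.

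The series compared 5 male mice without treatment (control) with 5 male mice given aldosterone over 7 days, and each sample is labelled as its own mouse. The source names of both groups carry the word Ctrl, which the labels do not explain, and no label gives a strain, an age or a dose of the hormone. Ventricle RNA was labelled with Cy5 and hybridised to 2-colour Agilent arrays against a Cy3-labelled reference, a pool of brain, kidney, liver, spleen and heart RNA. Scanner files of 5 control and 4 aldosterone hearts were analysed, and aldosterone 4 entered through the authors' deposited value table alone. Levels below are log2 ratios of heart over reference. In the scanner files they are normalized within each array by loess, so 0 marks the array's trend at that intensity, not equal signal. Each difference below is the aldosterone mean less the control mean, in log2 units. Levels of different probes cannot be set against each other.

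Leukocytes leave the blood in steps. Selectins such as P-selectin (Selp) on activated endothelium let them roll, chemokines held on the vessel wall activate their integrins, and the activated integrins then bind Icam1 and Vcam1 and arrest the cell. Ccl2 and Ccl7 draw monocytes, Ccl11 (eotaxin) draws eosinophils, and Cxcl1 draws neutrophils through Cxcr2. Cxcl12 retains cells that carry Cxcr4, and Cx3cl1 (fractalkine) is a membrane-bound chemokine that captures cells with Cx3cr1. Aldosterone acts through the mineralocorticoid receptor, and an inflammatory response of the vessel wall is a known feature of mineralocorticoid excess in rodent hearts. Which cardiac genes respond to aldosterone is the question of the series.

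Ccl2, Ccl7, Ccl11 and Ccl8 lie in a cluster on chromosome 11, in that order, with Ccl12 between Ccl11 and Ccl8. The other 6 members lie on chromosomes 1 (Selp), 3 (Vcam1), 5 (Cxcl1), 6 (Cxcl12), 8 (Cx3cl1) and 9 (Icam1). RefSeq (GRCm38.p6) gave a promoter for 6 of the 10 members: Selp, Cxcl1, Cxcl12, Cx3cl1, Icam1 and Ccl8. Ccl2, Ccl7, Ccl11 and Vcam1 had none there and were not searched. The 250 bases before the annotated start are shown for Cxcl1 and Cx3cl1, whose groups did not overlap on the scanner arrays. They are also shown for Icam1, the other of these 6 with the motif of NF-kB, a factor that switches on many inflammatory genes. All 3 lie on the plus strand, at chr5:90890995-90891244 (Cxcl1), chr8:94771930-94772179 (Cx3cl1) and chr9:21015690-21015939 (Icam1). Capitals mark matches to the NF-kB core GGAANTTCC, searched on both strands, and to the TATA box TATAAA, searched on the forward strand.
Cxcl1: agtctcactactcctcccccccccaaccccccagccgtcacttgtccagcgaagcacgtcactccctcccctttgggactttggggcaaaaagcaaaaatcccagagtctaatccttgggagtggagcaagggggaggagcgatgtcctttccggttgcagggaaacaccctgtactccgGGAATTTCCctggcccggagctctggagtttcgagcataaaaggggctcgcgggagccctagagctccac
Cx3cl1: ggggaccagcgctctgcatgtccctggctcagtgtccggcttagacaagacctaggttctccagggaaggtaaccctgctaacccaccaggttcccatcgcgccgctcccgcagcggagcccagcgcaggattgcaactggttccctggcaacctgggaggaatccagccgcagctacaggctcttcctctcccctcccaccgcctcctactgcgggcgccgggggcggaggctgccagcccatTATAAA
Icam1: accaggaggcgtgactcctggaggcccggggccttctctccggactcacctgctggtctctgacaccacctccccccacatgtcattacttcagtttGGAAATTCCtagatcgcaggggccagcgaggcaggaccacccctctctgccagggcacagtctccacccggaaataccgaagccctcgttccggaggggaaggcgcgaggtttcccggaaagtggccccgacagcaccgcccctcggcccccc

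The NF-kB core stood in 2 of the 6 promoters, 70 bases before the start in Cxcl1 and 153 bases before it in Icam1. Of 32851 mouse promoters of the same length, 0.813% held it. The TATA box stood in 2, Ccl8 (32 bases before the start) and Cx3cl1 (6 bases before it), against 7.59% of all promoters. The steroid receptor half-site AGAACA, searched on both strands, was in none of the 6 and in 16.1% of all. These motifs were chosen with the member promoters in view, none overlapped another, and a match is a string of letters only.

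Before the comparison, the state of the arrays bears on every value. The hearts varied together in a way that crossed the groups: the first principal component of the residuals from the group means held 38.1% of the residual variance, with controls 2 and 5 and aldosterone 1 and 2 on one side and the other 5 arrays on the other. Each of the 4 slides held hearts of both groups, but position on the slide went with the group, and these cannot be told apart. Local backgrounds more than 20 units from their array's median were replaced by it, which touched 0 to 85 Cy5 spots per array, on 8 of 9 arrays. No spot of a member was among those replaced. Per array, 64.3% to 70.9% of the probes gave a heart signal clear of background. All 8 cardiomyocyte and all 10 endothelial marker genes were above background on 9 of 9 arrays.

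No member passed the test. In limma, 0 of the 12 probes had an adjusted p under 0.05, as did 0 of all 26877 probes (0%). At an unadjusted p under 0.05 there were 3 member probes, those of Cxcl1, Cx3cl1 and Vcam1 probe 1, all 3 higher with aldosterone. Of all probes 6.11% passed that threshold, 3.99% higher and 2.12% lower. The groups did not overlap for 2 of the 12, Cxcl1 and Cx3cl1, against 1.37% of all probes with every aldosterone array above every control and 0.655% with every one below. Of the 12 differences, 8 were above 0 and 4 below, with a median of 0.043 against a median of 0.0036 over all probes tested.

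**Figure D1:**
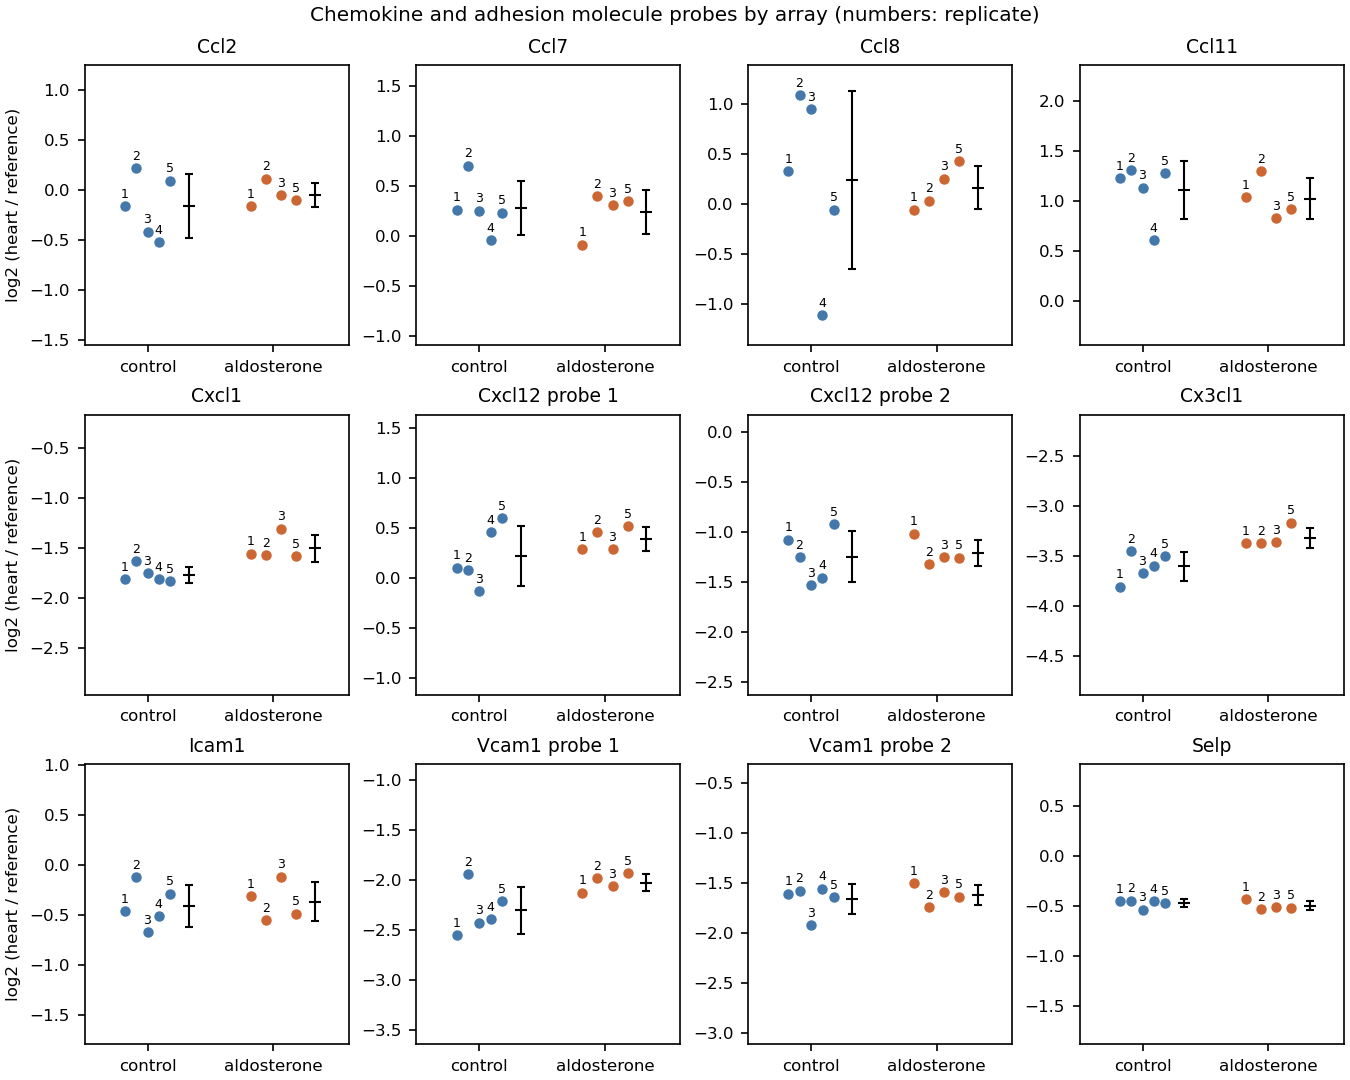
Log2 ratio of heart over reference (y axis) for the 12 probes, 1 point per array with its replicate number, for 5 control and 4 aldosterone hearts. Bars are mean ± SD, and every panel spans the same height. Cxcl1 and Cx3cl1 show no overlap between groups, Ccl8 has the widest control spread (SD 0.89), and Selp hardly varies.

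Cxcl1, the neutrophil chemokine, gave the smallest p of the set. Its level was -1.81, -1.63, -1.74, -1.81 and -1.82 in controls 1 to 5 and -1.55, -1.57, -1.30 and -1.58 in aldosterone 1, 2, 3 and 5. Every aldosterone heart lay above every control, and aldosterone 3 stood highest. The difference was 0.26 (SE 0.07, limma, unadjusted p = 0.00455, adjusted p = 0.509), or 1.20-fold with a 95% interval of 1.07 to 1.34. It was above 0 on all 4 slides, at 0.17, 0.17, 0.51 and 0.25, and 0.27 with slide as a block. The spot is dim, with a Cy5 signal of 104 to 189 units over a local background of 54 to 62.5. The offset of 50 units added in background correction compresses such differences, and the scanner's own processed ratios gave 0.52 on the same arrays. With the local backgrounds of all arrays left as scanned, the difference was 0.09 (limma, unadjusted p = 0.676).

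In the value table of all 10 hearts, Cxcl1 was -2.52, -2.04, -2.33, -2.43 and -2.51 in controls 1 to 5 and -2.12, -1.86, -1.45, -2.14 and -1.95 in aldosterone 1 to 5. Here control 2 reached into the aldosterone range, and 3 of 5 aldosterone hearts lay above the highest control. The difference was 0.46 (SE 0.14, limma, unadjusted p = 0.00893, adjusted p = 0.406). These hearts are the same animals plus 1, so the value table is no separate test.

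Cx3cl1, which endothelium carries on its surface, differed by a like amount. It was -3.81, -3.46, -3.67, -3.60 and -3.50 in controls and -3.37, -3.37, -3.37 and -3.17 with aldosterone, so the groups did not overlap and 3 of the 4 aldosterone arrays were nearly equal. The difference was 0.29 (SE 0.08, limma, unadjusted p = 0.00485, adjusted p = 0.515), 1.22-fold with an interval of 1.08 to 1.38. Within the slides it ranged from 0.23 to 0.33, the narrowest range of any member above 0 on all 4 slides. Its signal was 439 to 784.5 units in Cy5, well clear of the background. With all local backgrounds left as scanned it was 0.16 (limma, unadjusted p = 0.213), and without control 1 it was 0.24 (limma, unadjusted p = 0.0105). The value table put aldosterone 4 at -3.52, within the control range of -3.67 to -3.44, and the difference over 10 hearts was 0.23 (SE 0.08, limma, unadjusted p = 0.0158, adjusted p = 0.489).

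Vcam1, the endothelial ligand of the integrin made of Itga4 and Itgb1, was read by 2 probes that gave different pictures on the scanner arrays. Probe 1, of the higher signal (440 to 836.5 units), was -2.55, -1.94, -2.43, -2.39 and -2.21 in controls and -2.13, -1.98, -2.06 and -1.94 with aldosterone. Control 2 alone among the controls lay within the aldosterone range. The difference was 0.28 (SE 0.11, limma, unadjusted p = 0.0292, adjusted p = 0.752), and it was above 0 on all 4 slides, from 0.12 to 0.45. Without control 2 it was 0.37 (limma, unadjusted p = 0.00106), and with all local backgrounds left as scanned 0.16 (limma, unadjusted p = 0.199). Leaving out control 1, 3 or 4 or aldosterone 2 or 5 gave 0.22 to 0.26, with an unadjusted limma p of 0.0603 to 0.0754.

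Probe 2 of Vcam1 was dim, at 106 to 146.5 units, and lay at -1.60, -1.57, -1.92, -1.55 and -1.64 in controls and -1.50, -1.74, -1.59 and -1.64 with aldosterone. The groups overlapped throughout, and the difference was 0.041 (SE 0.084, limma, adjusted p = 0.999), with an interval of -0.14 to 0.23. Both probes carry the same transcript accession, and their values correlated at a Pearson r of 0.21 over the 9 arrays. Over the 10 hearts of the value table this r was 0.59. The offset added in background correction compresses the ratios of a spot as dim as probe 2, as it does for Cxcl1. Over the value table the difference of probe 1 was 0.28 (SE 0.09, limma, unadjusted p = 0.00839, adjusted p = 0.401), with aldosterone hearts between -1.98 and -1.90, and that of probe 2 was 0.12 (SE 0.10).

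**Figure D2:**
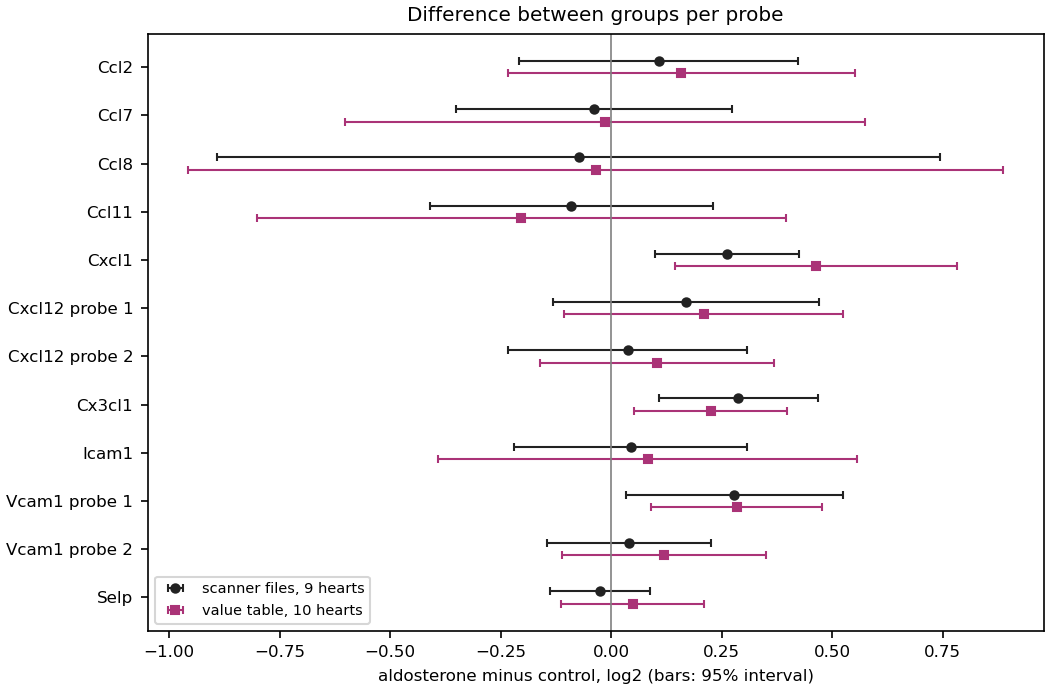
Aldosterone minus control on the log2 scale (x axis) for the 12 probes, with 95% intervals from limma, in the scanner files of 9 hearts (circles) and the value table of 10 hearts (squares). The intervals of Cxcl1, Cx3cl1 and Vcam1 probe 1 lie above 0 in both before adjustment over all probes, and that of Ccl8 is the widest, from -0.89 to 0.74 in the scanner files.

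Icam1, the endothelial ligand of the beta-2 integrins, showed no separation of the groups. Controls were at -0.46, -0.12, -0.67, -0.52 and -0.29 and aldosterone hearts at -0.31, -0.56, -0.12 and -0.49. Aldosterone 3 and control 2 were the highest and nearly equal. The difference was 0.044 (SE 0.12, limma, adjusted p = 0.999), with an interval of -0.22 to 0.31. The Cy5 signal was 88 to 119 units, close to the background of 57 to 63, and the reference channel was as dim, at 101 to 119.5. Its interval therefore bounds a compressed ratio, and in the value table it ran from -0.39 to 0.56.

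Selp was printed as 10 spots per array, which shows how far a dim probe can be read. Its level was -0.45, -0.44, -0.53, -0.45 and -0.47 in controls and -0.43, -0.53, -0.51 and -0.51 with aldosterone. The difference was -0.025 (SE 0.052, limma, adjusted p = 0.999), with an interval of -0.14 to 0.09. The spots of 1 array had a median SD of 0.12, which puts the standard error of an array's mean near 0.037, while the hearts of a group differed with an SD of 0.041. The spread between hearts was thus close to the error of an array's mean and smaller than the spread of single spots. Of the 90 Selp spots on 9 arrays 86 were well above background, with signals of 78.45 to 91.3 units as array means. In the value table the difference was 0.049 (SE 0.072), of opposite sign.

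**Figure D3:**
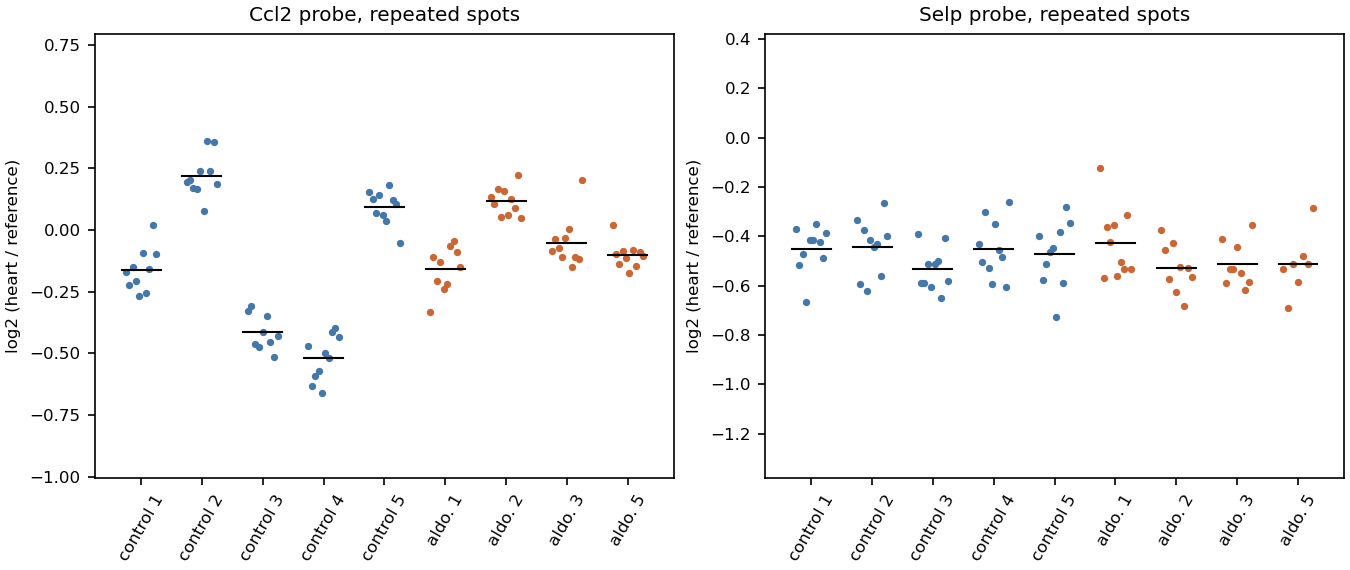
Log2 ratio of heart over reference (y axis) of each spot of the Ccl2 and Selp probes, printed 10 times on each of 9 arrays (x axis), without spots marked as outliers. Lines are array means. For Ccl2 the arrays stand apart by more than their spots (SD between hearts 0.25, median SD between spots 0.086), and for Selp they do not.

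Ccl2, the main monocyte chemokine, was also printed as 10 spots, and there the arrays did differ from each other. The median SD between spots of 1 array was 0.086, or a standard error of 0.027 for the mean, against an SD of 0.25 between hearts of a group. Controls lay at -0.16, 0.22, -0.41, -0.52 and 0.09, and aldosterone hearts at -0.16, 0.12, -0.05 and -0.10. All 4 aldosterone hearts fell within the control range. The difference was 0.11 (SE 0.14, limma, adjusted p = 0.999), with an interval of -0.21 to 0.42, and it was above 0 on 2 of 4 slides. Spot error was therefore small beside the spread between arrays, and the controls alone spanned from -0.52 to 0.22. Each heart was read on 1 array, so animal, labelling and hybridisation cannot be told apart in that spread. Without control 4 the difference was 0.017 and without control 2 it was 0.20.

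Ccl7, the neighbour of Ccl2 and a ligand of the same monocyte receptor, was at 0.26, 0.70, 0.25, -0.04 and 0.23 in controls and -0.09, 0.40, 0.31 and 0.35 with aldosterone. Aldosterone 1 was the lowest heart and control 2 the highest. The difference was -0.039 (SE 0.14, limma, adjusted p = 0.999). Without control 2 it was 0.066 and without aldosterone 1 it was 0.071, so 1 array of either group sets its sign.

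Ccl8 varied most. Its controls ran from -1.11 (control 4) to 1.09 (control 2), with 0.33, 0.95 and -0.06 between them, and the aldosterone hearts lay at -0.05, 0.03, 0.25 and 0.43. The SD was 0.89 in controls (n = 5) and 0.22 with aldosterone (n = 4), and this difference in spread was not tested. The group difference was -0.074 (SE 0.37, limma, adjusted p = 0.999), with an interval from -0.89 to 0.74. That interval leaves room for a 1.67-fold higher or a 0.54-fold level. Without control 4 the difference was -0.41, and without control 2 it was 0.14. The tenth heart, aldosterone 4, at 0.61 in the value table, also lay within the control range of -0.98 to 1.51.

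Ccl11, the eosinophil chemokine, lay at 1.23, 1.31, 1.13, 0.61 and 1.28 in controls and 1.04, 1.30, 0.82 and 0.92 with aldosterone. Control 4 stood below all other hearts. The difference was -0.091 (SE 0.15, limma, adjusted p = 0.999), with an interval of -0.41 to 0.23. Its reference channel was at 85 to 95 units and well above background on 8 of 9 arrays, so the level of the ratio depends on the treatment of background. The mean of controls was 1.11 here and 3.28 in the value table. Without control 4 the difference was -0.22 (limma, unadjusted p = 0.0554), and with all local backgrounds left as scanned it was 0.04.

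Among controls, the 4 genes of the chromosome 11 cluster ranked the animals alike at the ends: control 2 was the highest control and control 4 the lowest for Ccl2, Ccl7, Ccl8 and Ccl11. Over the 9 arrays, the Pearson r was 0.73 for Ccl7 with Ccl8, 0.70 for Ccl2 with Ccl7, 0.67 for Ccl2 with Ccl11, 0.60 for Ccl8 with Ccl11, 0.56 for Ccl7 with Ccl11 and 0.42 for Ccl2 with Ccl8. Over 10 hearts of the value table the same 6 pairs ran from 0.50 to 0.75. As deviations from the group means, Ccl2 had an r of 0.68 with the first principal component described above, Ccl11 0.52, Ccl7 0.16 and Ccl8 -0.084. Among the other members this r was 0.60 for Selp, 0.58 for Cxcl12 probe 2 and 0.52 for Vcam1 probe 1. For Cx3cl1 it was 0.28 and for Cxcl1 -0.12. The arrays share the reference, the slides and this component, and these values are descriptions.

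**Figure D4:**
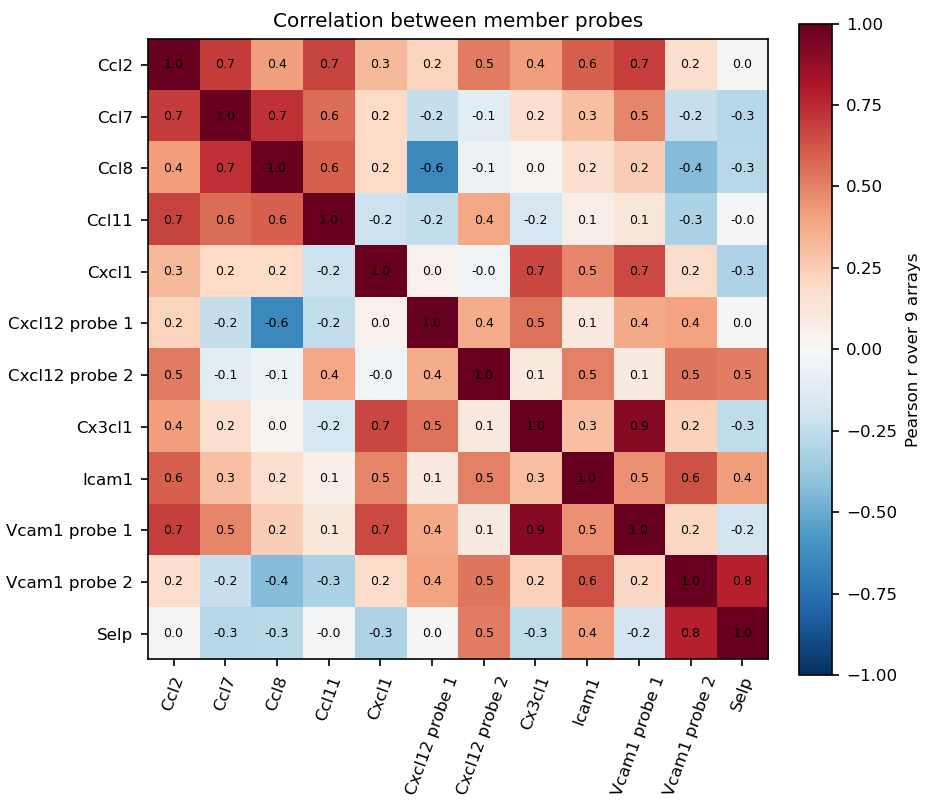
Pearson r between the 12 member probes over 9 arrays, from -1 (blue) to 1 (red). The Ccl genes form a block of positive values, Cx3cl1 and Vcam1 probe 1 have the highest value at 0.91, and Ccl8 with Cxcl12 probe 1 the lowest at -0.65.

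Cxcl1, Cx3cl1 and Vcam1 probe 1 also varied together across the hearts. Cx3cl1 and Vcam1 probe 1 had an r of 0.91, Cxcl1 and Cx3cl1 of 0.67, and Cxcl1 and Vcam1 probe 1 of 0.66. Over 10 hearts these were 0.79, 0.72 and 0.76. Ccl2 of the chromosome 11 cluster also had an r of 0.69 with Vcam1 probe 1, and of 0.61 over 10 hearts. The members thus do not fall into separate groups by these values. Cxcl1, Cx3cl1 and Vcam1 probe 1 are the probes with the smallest p in the comparison, so the treatment difference itself is part of their correlation.

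The genes most like each of them over the 9 arrays were Cd55, Mfap2 and Emilin1 for Cx3cl1 (r from 0.95 to 0.96), Casp4, Mrpl12 and Mlkl for Vcam1 (0.95 to 0.98), and Zfp672, Socs6 and Col5a2 for Cxcl1 (0.92 to 0.96). For Ccl2 they included Mal (0.98) and Ch25h (0.97). The nearest to Ccl7 were Olfr1033, Actg1 and Dennd1c, to Ccl8 Majin, Grk5 and Mon1b, and to Ccl11 they included Rasgrp1 and Rnf5. For Cxcl12 (probe 1) they were Olfr531, Sec61g and Nudt6, for Icam1 Rps6ka3, Smagp and Frmd8, and for Selp H6pd, Kcnt1 and Rgs8. The genes named here all had an r of 0.9096 or more over 9 arrays. Of the 26877 probes tested, those with a gene symbol and no missing value were searched.

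Cxcl12, the stromal chemokine that binds Cxcr4 and Ackr3, was read by 2 probes named for different transcripts of the gene. Probe 1 had signals of 11911 to 18112.5 units and lay at 0.10, 0.08, -0.14, 0.45 and 0.60 in controls and 0.29, 0.46, 0.29 and 0.52 with aldosterone. All 4 aldosterone hearts were above the control median but none above the highest control. The difference was 0.17 (SE 0.14, limma, adjusted p = 0.979), with an interval of -0.13 to 0.47. Within the slides it ran from -0.17 to 0.59. Without control 5 it was 0.26 (limma, unadjusted p = 0.0488), and without control 3 it was 0.081. Probe 2, at 248.5 to 378 units, lay at -1.08, -1.26, -1.54, -1.46 and -0.92 in controls and -1.02, -1.32, -1.25 and -1.26 with aldosterone, a difference of 0.037 (SE 0.12, limma, adjusted p = 0.999). The r between the 2 probes was 0.37 over 9 arrays. In the value table all 5 aldosterone hearts lay above the control median with either probe and within the control range, with differences of 0.21 (SE 0.14) and 0.10 (SE 0.12).

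Over the 10 hearts of the value table, 9 of 12 differences were above 0, and the same 3 probes had an unadjusted p under 0.05, against 7.98% of all probes, 4.59% higher and 3.39% lower. None of the 12 passed adjustment, while 35 of 26877 probes did (0.13%). No member's groups were free of overlap there, against 1.27% of probes with every aldosterone heart above every control and 0.64% with every one below.

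The other chemokine ligands gave no call either. Of 30 ligands listed, 28 had a probe, 18 were tested, 12 were higher and 6 lower, and 0 passed in limma, with 2 higher at an unadjusted p under 0.05. These were Cxcl14, at 0.46 (SE 0.17), and the platelet chemokine Pf4, at 0.49 (SE 0.21). On the lower side the smallest p belonged to Ccl17 (-0.057, SE 0.058) and Ccl5 (-0.13, SE 0.24). Ccl17 was well above background on 4 of 9 arrays. The neutrophil chemokine Cxcl2, a close relative of Cxcl1, was not well above background on any array, and Ccl12, the neighbour of Ccl8, differed by 0.0038 (SE 0.25). The median of the 18 was 0.08. For this list and those below, the share over all probes tested was 51.6% higher, and 3.99% higher at an unadjusted p under 0.05 (limma).

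Of the receptors, 18 of 22 were tested, with 11 higher, 7 lower and 0 called, and a median of 0.020. The 2 with an unadjusted p under 0.05 were atypical receptors, which bind chemokines without the usual signal. Ackr3, which takes up Cxcl12, differed by 0.30 (SE 0.13, limma, adjusted p = 0.805), and Ackr4 by 0.40 (SE 0.18). Of the leukocyte receptors of the members named here, none passed: Ccr2 was at -0.018 (SE 0.13), Cxcr4 at -0.071 (SE 0.11) and Cx3cr1 at 0.10 (SE 0.32). Ccr3, the eotaxin receptor, differed by 0.13 (SE 0.08), Cxcr2 by 0.048 (SE 0.058) and the vessel chemokine scavenger Ackr1 by 0.015 (SE 0.061). Cxcr5, with -0.09 (SE 0.058), and Ccr10, with -0.08 (SE 0.083), had the smallest p on the lower side. Ccr2 was well above background on 6 of 9 arrays and Cxcr2 on 4, and Ccr1 was on none.

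The integrins that bind Icam1 and Vcam1 gave no call. Itgal differed by 0.022 (SE 0.074), Itgam by -0.025 (SE 0.065), Itgb2 by -0.0064 (SE 0.11), Itga4 by -0.024 (SE 0.11) and Itgb1 by 0.12 (SE 0.072). Selplg, the ligand of P-selectin, was at 0.065 (SE 0.20). In this list 14 of 17 genes were tested, 7 higher and 7 lower, with a median of -0.00061 and 0 called. St3gal4, a sialyltransferase that helps build selectin ligands, had the smallest p at 0.17 (SE 0.062, limma, adjusted p = 0.713), and Itgb7 (-0.14, SE 0.12) and Spn (-0.098, SE 0.11) the smallest on the lower side. Sele, the endothelial selectin, was not well above background on any array.

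Of 16 other endothelial adhesion and junction molecules all were tested, 12 higher and 4 lower, with a median of 0.09, 3 higher at an unadjusted p under 0.05 and 0 called. Cd34 differed by 0.37 (SE 0.09, limma, adjusted p = 0.328) and Vwf, the platelet-binding protein of endothelium, by 0.32 (SE 0.13), with Esam at 0.18 (SE 0.081). On the lower side Alcam was at -0.11 (SE 0.094) and Mcam at -0.075 (SE 0.064). Icam2, the constitutive relative of Icam1, was at 0.16 (SE 0.12) and Pecam1 at 0.077 (SE 0.077).

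Inflammatory cytokines and NF-kB response genes gave no call. Of 25 listed, 19 were tested, 14 higher and 5 lower, with a median of 0.038 and 0 called. Il1r1, the interleukin 1 receptor, had the smallest p, at 0.21 (SE 0.076, limma, adjusted p = 0.713), followed by Il33 at 0.19 (SE 0.11). On the lower side Birc3 was at -0.099 (SE 0.069) and Rel at -0.068 (SE 0.067). Nfkbia, a rapid NF-kB target, was at 0.049 (SE 0.13) and Tnf at -0.027 (SE 0.049). Tnf was well above background on 7 of 9 arrays and Rel on 6, and Il6 and Il1a were on none.

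**Figure D5:**
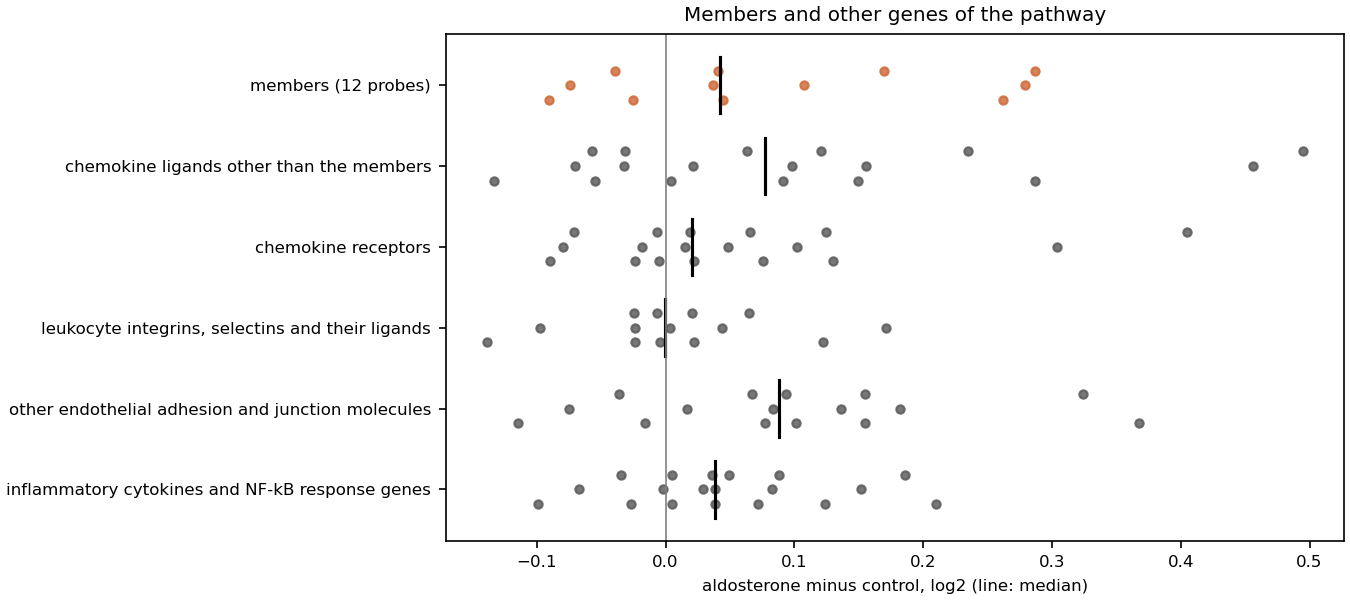
Aldosterone minus control on the log2 scale (x axis) for the 12 member probes and for 1 probe per tested gene of 5 lists of related genes, with the median of each as a line. The medians lie between -0.00061 and 0.09.

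Markers of the cell types that make or answer these signals are given beside the members. All 10 fibroblast markers were higher with aldosterone, 7 of them at an unadjusted p under 0.05 in limma and 0 called. Their mean level was 0.26 to 0.85 in controls and 0.62 to 1.07 with aldosterone. Of all probes tested, 51.6% were higher, and 3.99% were higher at that threshold. At it, 1 macrophage, 1 endothelial, 1 platelet and 1 mast cell marker was higher, and 1 neutrophil and 1 adipocyte marker lower. The endothelial marker was Vwf and the platelet marker Pf4, both already counted in the lists of related genes above. Macrophage and monocyte markers were higher in 8 of 10 tested, at -1.47 to -0.62 in controls and -1.03 to -0.74 with aldosterone. Endothelial markers were higher in 3 of 10, at 0.48 to 0.70 and 0.62 to 0.69. The 4 platelet markers tested were all higher, at -2.91 to -2.48 and -2.45 to -2.31, and neutrophil markers were higher in 5 of 7, at -5.03 to -4.66 and -4.89 to -4.35. Lymphocyte markers were lower in 10 of 11, and mast cell markers in 4 of 5. Smooth muscle and pericyte markers split 4 to 4, cardiomyocyte markers were higher in 3 of 8 and adipocyte markers lower in 6 of 7. The part of these cell types in the differences of Cxcl1, Cx3cl1 and Vcam1 was not tested. In whole ventricle, more cells of a type and more RNA per cell cannot be told apart.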

How the data were processed

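For 9 arrays, median spot intensity was taken from the deposited output of the scanner software (Agilent Feature Extraction 10.7.3.1, named in the file headers), which per the file headers also gives a log10 ratio of Cy5 over Cy3 and flags for spots well above background (other values, 0 or 1). A second source, the value table deposited by the authors, gives log2 ratios of all 10 hearts. It matched the scanner's ratio for the 9 arrays (Pearson r 0.996 to 1.00) with no centring seen, and 82.7% to 86.5% of probes agreed within 0.001. The median of each column was, in replicate order, 0.06, 0.06, 0.12, 0.02 and 0.02 without treatment, and with aldosterone 0.04, 0.08, 0.11, -0.0066 and 0.04. Accessions were matched without versions to RefSeq (GRCm38.p6), which named 26581 of 39429 probes.

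Median signals were background-corrected with normexp (offset 50) after stray local backgrounds were replaced, normalized by loess within arrays with control spots at weight 0, and averaged per probe without outlier spots (R 4.3.3, limma 3.58.1). Probes above background in Cy5 on at least 4 arrays were tested with limma, two-sided, with Benjamini-Hochberg adjustment over 26877 probes. The number of arrays limits the precision. The genes, lists and the replacement of stray backgrounds were chosen with earlier results of these data known. The rule named all members, their receptors, of each list the 2 genes of smallest p per direction, and the 3 genes most like each member; a few of these are not reported here. Ccl12, Cxcl2, Sele, Esam, Icam2, Pecam1, Nfkbia, Tnf, Il6 and Il1a were named after their values were seen. The fit was tested on simulated data. Replicate numbers are shared by the groups but pair nothing in the labels.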

Additional observations from a re-analysis of the deposited data

Results flagged for a closer look

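Dixon's criterion at the 95% level was applied within groups of 4 or 5 hearts, in 48 sets of values. Chance alone meets it in about 1 of 20 independent sets. These 48 took the same hearts from the scanner files and the value table, so they are not independent. In 6 of them, 1 heart lay far from the rest. On the scanner arrays these were Ccl11 in control 4 (0.61, next 1.13), Cxcl1 in aldosterone 3 (-1.30, next -1.55), Cx3cl1 in aldosterone 5 (-3.17, next -3.37), Vcam1 probe 2 in control 3 (-1.92, next -1.64) and Selp in aldosterone 1 (-0.43, next -0.51). In the value table it was Ccl7 in aldosterone 1 (0.31, next 0.97). For Cxcl1 and Cx3cl1 the heart farthest from its group was also the one farthest from the controls. Without aldosterone 3 the Cxcl1 difference was 0.20 (limma, unadjusted p = 0.0136), and without aldosterone 5 the Cx3cl1 difference was 0.24 (limma, unadjusted p = 0.0189).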

How the results depend on the processing

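No member probe and no gene of the 5 lists of related genes passed at an adjusted p under 0.05 in any of 23 alternatives, and the median difference of the member probes stayed between 0.011 and 0.13. Cxcl1, Cx3cl1, Vcam1 probe 1, Ccl2 and Cxcl12 probe 1 kept their sign in all 23. Cxcl1 and Cx3cl1 had an unadjusted p under 0.05 in 22 of 23, all but the one with local backgrounds as scanned, and Vcam1 probe 1 in 15. Aquantile changes no ratio by construction. Changed filters on dim probes, 1 probe per gene and the principal component covariate also left each difference as it was, changing only its error and p. The fits that leave out an array share most of their data, so the 23 alternatives are not separate checks.

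Over all probes, 8 passed with the scanner's processed ratios, 35 in the value table, 2 with the replicate block, 1 with the first principal component as a covariate, and 0 to 12 on leaving out each array. The cause was not tested. The replicate block leaves control 4 without a partner. Same-numbered hearts did not deviate together throughout (r = 0.06, 0.34, 0.34 and -0.32). These values of mixed sign cannot tell whether the numbers pair the hearts, and the labels state no pairing. The replicate block gave 0.25 for Cxcl1 and 0.29 for Cx3cl1.

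Signs turned for these. With local backgrounds as scanned, Ccl11 was 0.040, Cxcl12 probe 2 -0.037, Icam1 -0.014 and Vcam1 probe 2 -0.11. Selp was 0.033 with the processed ratios, 0.049 in the value table and 0.0093 in Cy5 alone, where Icam1 was -0.026. Cxcl12 probe 2 was -0.015 with the replicate block. On leaving out each array, Ccl7 ran from -0.12 to 0.071, Ccl8 from -0.41 to 0.14, Cxcl12 probe 2 from -0.034 to 0.12, Icam1 from -0.039 to 0.12 and Vcam1 probe 2 from -0.025 to 0.082. Signal close to background limits Icam1, Selp, Cxcl1 and Vcam1 probe 2.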
